A study of Homo sapiens with 8 samples.

Results

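SR proteins and heterogeneous nuclear ribonucleoproteins (hnRNPs) are RNA-binding proteins that decide, together with the core spliceosome, which exons of a pre-mRNA are kept. The 39 genes described here are 12 serine/arginine-rich splicing factors (SRSF1 to SRSF12), the 2 SR-like genes TRA2A and TRA2B, 20 hnRNP genes, the 3 polypyrimidine tract-binding proteins (PTBP1 to PTBP3, also called hnRNP I) and the 2 TIA proteins. They were taken by gene name from the 60282 genes of the deposited table, each name matched 1 row, and all 39 were among the 14073 genes with enough reads to be tested. The cells were SK-UT-1, an established human uterine leiomyosarcoma line, grown in minimum essential medium with 10% fetal bovine serum. In 4 replicates each, they received DMSO as vehicle or, for 48 h, 5 µM TP-472, a small molecule that the labels call a BRD9/7 inhibitor. BRD9 is a bromodomain subunit of a BAF-type chromatin remodelling complex. A single line at 1 dose and 1 time was measured, and the labels do not say whether replicates came from separate cultures. The study states in general that its experiments had biological replicates, without saying how those of these libraries were made, so p-values measure the spread between these libraries, which may in part be technical.

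SR proteins carry RNA-recognition motifs and an arginine/serine-rich domain, bind mainly to exonic enhancers and recruit the U1 and U2 particles to nearby splice sites. Many hnRNPs bind silencer elements and oppose them, although members of either family can do both, depending on where they bind. Many of these genes also regulate their own mRNA: an excess of the protein favours inclusion of a so-called poison exon, whose premature stop codon sends the transcript to nonsense-mediated decay. The counts used here are sums over all transcripts of a gene, so productive and poison-exon transcripts were not told apart. In bulk RNA, fewer cells of a type and less RNA per cell cannot be told apart either.

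The vehicle libraries held 34433596, 36634184, 32574716 and 36407850 counts and the TP-472 libraries 38545695, 37674588, 37427131 and 36246466. Values of single libraries are always given in the order of replicates 1 to 4. Levels are in CPM, counts scaled to the size of the library, after TMM scaling, which also corrects for composition. Differences are log2 fold changes, TP-472 over vehicle, ± their standard error. They come from edgeR's quasi-likelihood test over all 14073 genes, with Benjamini-Hochberg adjusted p-values. A gene "rose" or "fell" at an adjusted p under 0.05, and "differentially expressed" also asks for a fold change over 1.5, the limits the study used.

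Vehicle replicate 3 stood apart from the other vehicle libraries, and this bears on nearly every gene described below. Its median Spearman correlation with the other vehicle libraries over genes was 0.914, against 0.988 to 0.989 for the other 3. Its deviation from the mean of all libraries rose with the GC content of the transcripts (Spearman's rho 0.70 over the genes tested, where the other 7 libraries had values from -0.46 to -0.08). The splicing factors are GC-poor, with a median of 42.4% against 49.1% for all genes tested. Vehicle replicate 3 was the lowest of the 8 libraries for 30 of the 39 (76.9%), as it was for 36.4% of all genes tested, and the highest for 5 (12.8%, against 35.8%). The median ratio of its level to the mean of the other vehicle libraries was 0.68 for the splicing factors and 0.99 for all genes tested. Over the 39 genes this ratio followed GC content less closely (Spearman's rho 0.34) than over all genes tested (0.78). Fold changes of the 39 genes, and counts of those that passed, are therefore given with the 8 libraries and again with the 7 that remain without vehicle replicate 3. The cause of its deviation was not tested.

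**Figure D1:**
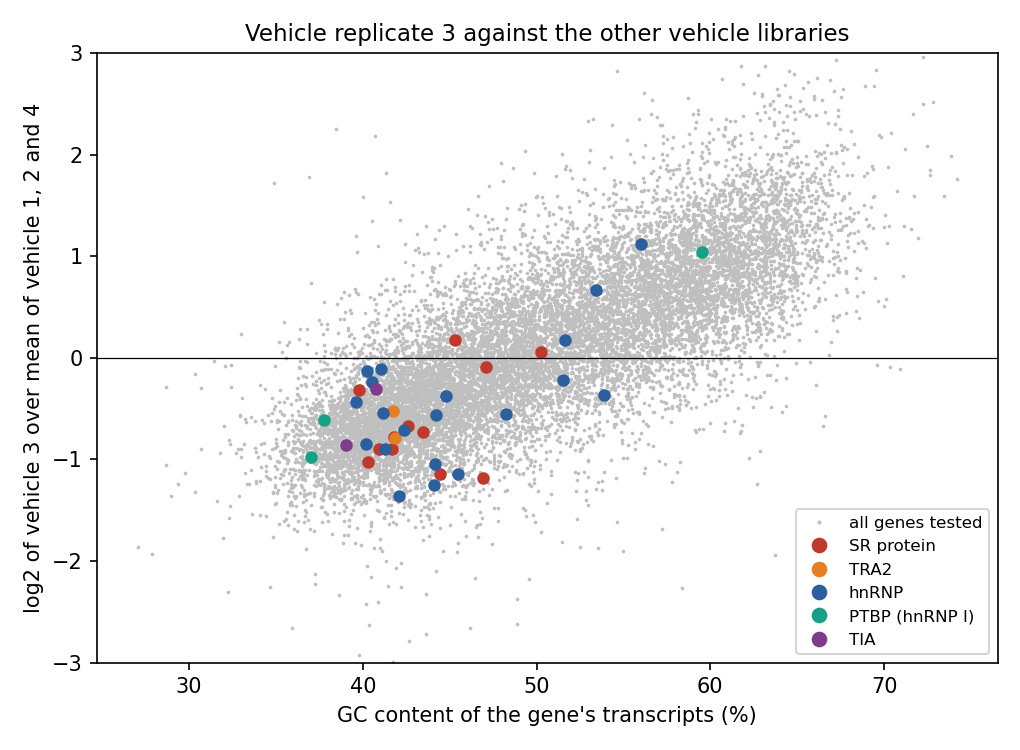
Each point is a gene: the x axis is the GC content of its transcripts in percent and the y axis the log2 ratio of its CPM in vehicle replicate 3 to the mean of vehicle replicates 1, 2 and 4. Grey points are all genes tested and coloured points the 39 splicing factors by class. Most of the coloured points lie at low GC content and below 0. PTBP1, HNRNPUL1 and HNRNPM, at high GC content, lie well above 0, while HNRNPAB (53.9%) and HNRNPUL2 (51.6%) lie below it.

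With 8 libraries, 10 of the 39 genes rose (25.6%) and 1 fell (2.56%), where 17.2% of all genes tested rose and 19.1% fell. Without vehicle replicate 3, 14 rose (35.9%) and 7 fell (17.9%), where 28.6% and 28.4% of all genes did. All 10 genes that rose with 8 libraries rose also with 7: SRSF1, SRSF2, SRSF3, SRSF6, SRSF7, SRSF8, SRSF12, TRA2B, HNRNPA0 and HNRNPAB. HNRNPUL2 fell in both. SRSF9, SRSF10, HNRNPF and HNRNPM rose with 7 libraries and did not pass with 8. SRSF4, SRSF11, HNRNPLL, HNRNPUL1, PTBP2 and TIA1 fell with 7 and did not pass with 8, and 18 genes passed in neither. The count with 8 libraries also depended on other libraries: 4 genes rose without vehicle replicate 1 (10.3%, against 12.6% of all genes), and 4, 2, 2 and 5 without TP-472 replicates 1, 2, 3 and 4 (10.3%, 5.13%, 5.13% and 12.8%, against 11.4%, 11.3%, 11% and 12.8%). In these 5 cases the share of the 39 genes that rose was at or below that of all genes. Without vehicle replicate 2 or 4 it was 28.2% or 23.1%, against 16.4% or 15.5%.

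Most changes were small. The median log2 fold change over the 39 genes was 0.22 with 8 libraries and 0.06 with 7, beside -0.03 and -0.00 for all genes tested. Differential expression was reached upward by 6 genes with 8 libraries (15.4%, against 12.0% of all genes) and by 2 with 7 (5.13%, against 12.0%). Downward, it was reached by 0 with 8 libraries by edgeR (14.9% of all genes), by 1 at an unadjusted p under 0.05, and by 1 each by DESeq2 and by limma-voom with quality weights. With 7 libraries it was reached by 1, TIA1 (2.56%, against 13.4%). The TP-472 libraries lay wholly above the vehicle libraries for 15 genes with 8 libraries (38.5%, against 23.8% of all genes) and 16 with 7 (41.0%, against 29.8%). They lay wholly below for 3 (7.69%, against 21.6%) and 7 (17.9%, against 28.7%).

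**Figure D2:**
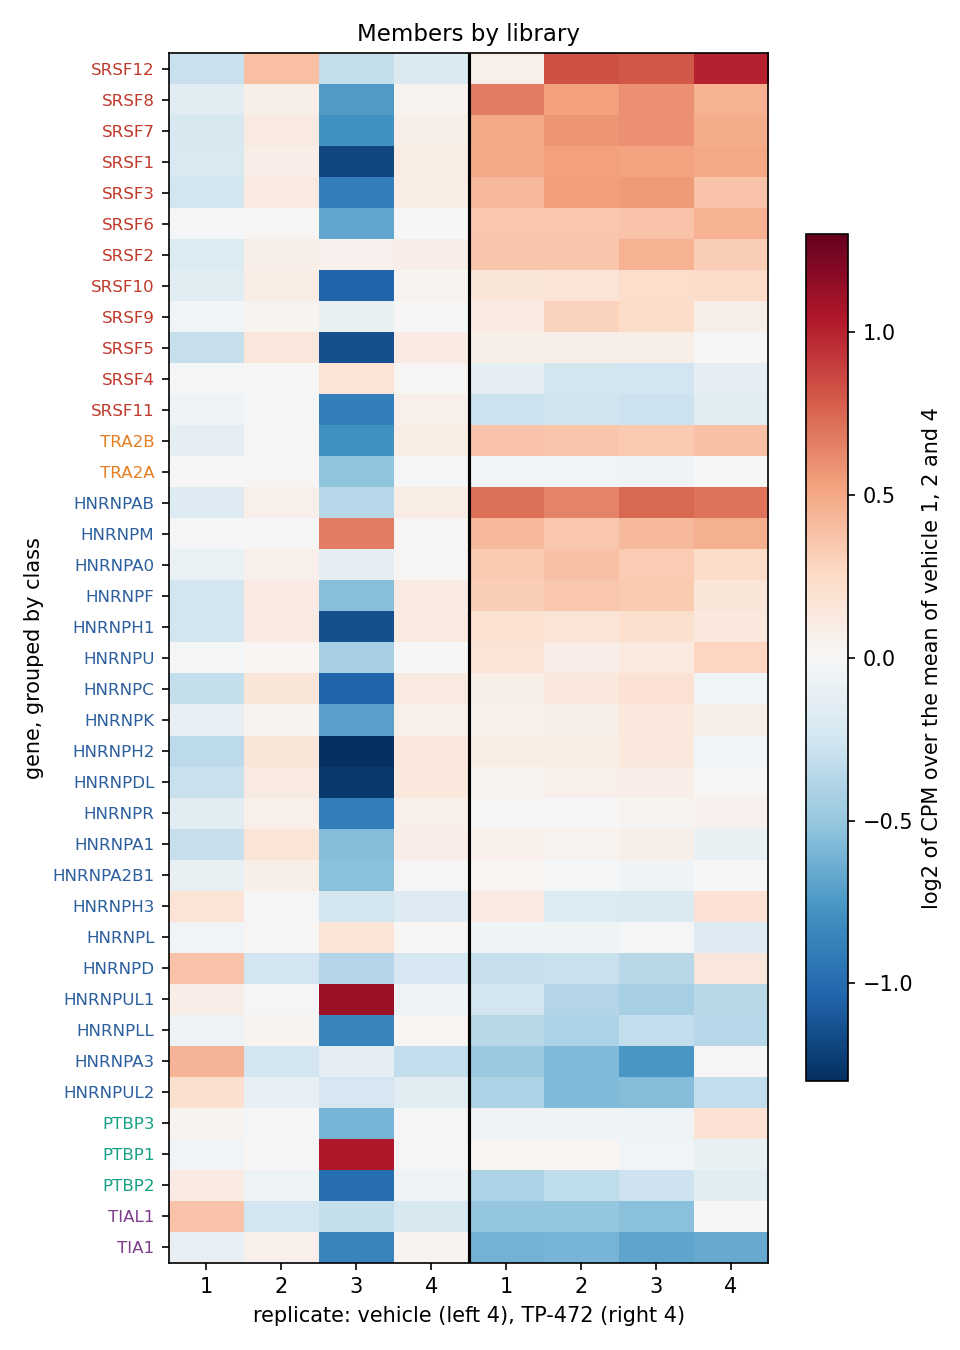
Heat map of the 39 genes (rows, grouped and coloured by class) in the 8 libraries (columns, vehicle left of the line and TP-472 right of it). Colour is the log2 ratio of CPM to the mean of vehicle replicates 1, 2 and 4: SR proteins are mostly red under TP-472 and hnRNP genes mostly near white, and vehicle replicate 3 is blue for most rows.

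**Figure D3:**
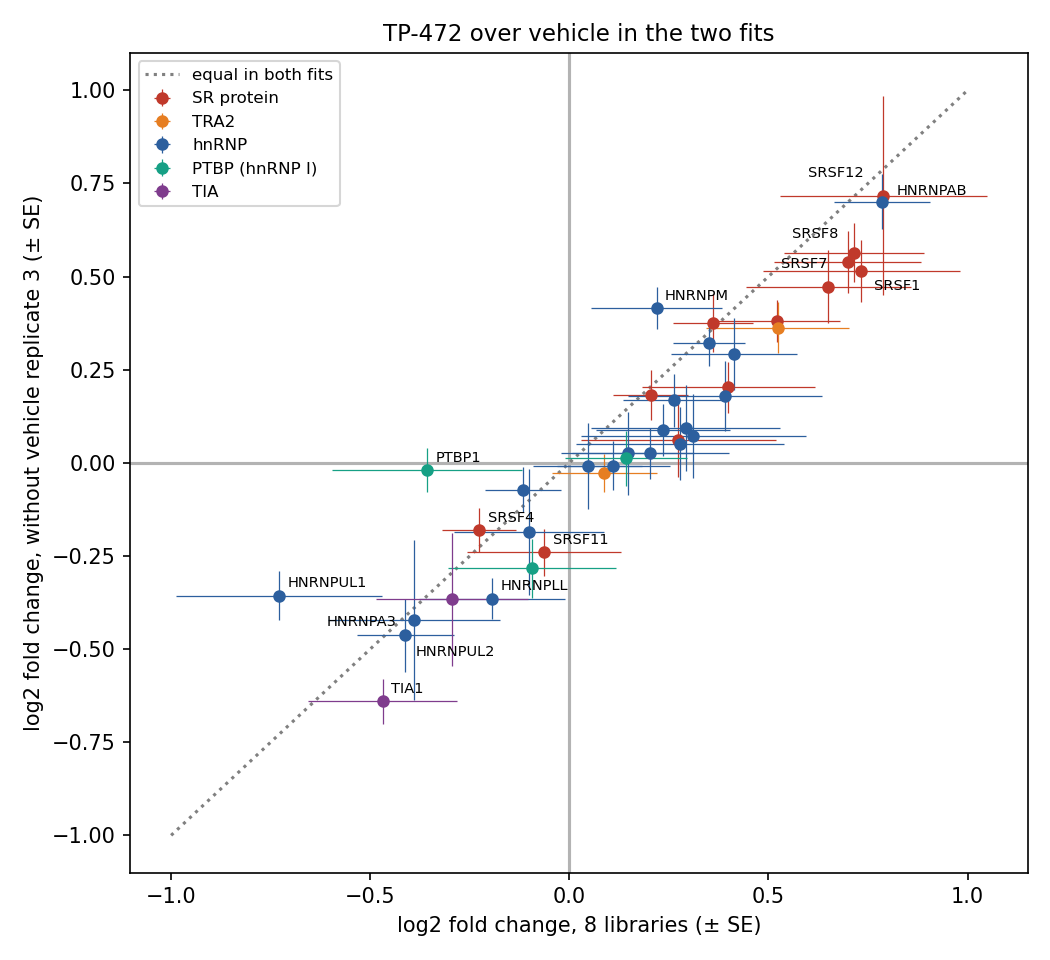
Log2 fold change (TP-472 over vehicle) of the 39 genes with 8 libraries (x axis) against the value without vehicle replicate 3 (y axis), with standard errors as bars and class as colour. Points right of or below the dotted line, such as SRSF1, had a higher value with vehicle replicate 3 than without it; HNRNPUL1, PTBP1 and HNRNPM lie on the other side.

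Sequence upstream of the start is shown for HNRNPAB and SRSF8, the 2 genes whose adjusted p stayed under 0.05 in each of 19 alternative analyses, and for TIA1, the gene differentially expressed downward without vehicle replicate 3. The 250 bases before the RefSeq gene start (GRCh38.p14) are chr5:178204283-178204532 on the plus strand, chr11:95066627-95066876 on the plus strand and chr2:70248794-70249043 on the minus strand. Capitals mark the letters CCAAT (the CCAAT box) and GGGCGG (the GC box), found on either strand.
HNRNPAB: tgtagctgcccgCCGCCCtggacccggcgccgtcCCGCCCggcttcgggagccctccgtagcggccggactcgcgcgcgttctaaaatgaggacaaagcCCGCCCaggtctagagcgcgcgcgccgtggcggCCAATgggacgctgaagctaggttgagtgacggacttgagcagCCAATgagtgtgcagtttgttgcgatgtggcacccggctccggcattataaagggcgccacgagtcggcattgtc
SRSF8: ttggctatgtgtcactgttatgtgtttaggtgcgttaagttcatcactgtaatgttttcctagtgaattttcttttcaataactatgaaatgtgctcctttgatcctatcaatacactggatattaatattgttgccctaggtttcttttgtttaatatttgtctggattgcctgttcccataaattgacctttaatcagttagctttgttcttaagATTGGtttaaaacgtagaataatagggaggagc
TIA1: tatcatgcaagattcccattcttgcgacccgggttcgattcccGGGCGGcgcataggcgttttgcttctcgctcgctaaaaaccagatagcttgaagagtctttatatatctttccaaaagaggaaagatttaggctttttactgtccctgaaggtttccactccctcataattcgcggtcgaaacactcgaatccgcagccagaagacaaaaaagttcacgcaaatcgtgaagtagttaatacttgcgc
The HNRNPAB stretch is GC-rich, with 2 CCAAT matches and 3 GC boxes, while that of SRSF8 is AT-rich with 1 CCAAT match and no GC box, and that of TIA1 holds 1 GC box. RefSeq upstream sequence was matched for 36 of the 39 genes; SRSF2, TRA2A and HNRNPA1 were without an entry in the table used. CCAAT was found in 16 of the 36 (44.4%), beside 32.0% of 35116 promoters, and GGGCGG in 24 (66.7%), beside 42.6%. Of the 9 matched genes that rose with 8 libraries, 4 had CCAAT and 6 had GGGCGG. The E-box letters CACGTG stood in 6 of the 36 (16.7%, beside 6.35%) and in 0 of those 9. In all, 8 motifs were searched on both strands. The ETS letters CCGGAAG stood in 5 of the 36 (13.9%, beside 8.52%), TATAAA in 6 (16.7%, beside 10.7%) and the CGCG element, a palindrome, in 2 (5.56%, beside 0.373%), while the CRE letters TGACGTCA and the AP-1 letters TGANTCA stood in 0 of the 36, beside 1.65% and 6.57%. These matches describe the letters in this window only.

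The SR proteins held most of the upward calls. Of the 12 SRSF genes, 7 rose (58.3%, against 17.2% of all genes tested) and 0 fell (against 19.1%) with 8 libraries, at a median log2 fold change of 0.46. With 7, 9 rose (75%, against 28.6%) and 2 fell (16.7%, against 28.4%), at a median of 0.38. With vehicle replicate 3 kept, the count of rises rested on single libraries and on settings. Without TP-472 replicate 2 or 3 it was 1 of 12 (8.33%), below the 11.3% and 11% of all genes. Without vehicle replicate 1 it was 2 (16.7%, against 12.6%), and without TP-472 replicate 1 or 4 it was 3 (25%, against 11.4% and 12.8%). It was also 2 without a filter (16.7%, against 8.06%) and 2 with replicate number as a block (16.7%, against 11.9%). At an unadjusted p under 0.05 with 8 libraries, 1 SRSF gene was lower, SRSF4, and with the same libraries 1 fell by DESeq2 and 2 by limma-voom with quality weights. The summed level of the 12 genes was 1979, 2322, 1388 and 2314 CPM in the 4 vehicle libraries and 2676, 2759.6, 2783 and 2688 CPM in the 4 TP-472 libraries. The sums under TP-472 all lay above those in vehicle, with and without vehicle replicate 3.

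SRSF8 was, beside HNRNPAB, the only gene whose adjusted p stayed under 0.05 in each of 19 alternative analyses of normalization, filter, tool and libraries. It is an SRSF2-like SR protein encoded at chr11:95067197-95071224 (GRCh38), and it was measured at 21.4, 24.8, 14.2 and 24.3 CPM in the 4 vehicle libraries and 37.3, 33.96, 35.5 and 32.3 CPM in the 4 TP-472 libraries. All TP-472 libraries were above all vehicle libraries, of which replicate 3 was the lowest. This gave a log2 fold change of 0.71 ± 0.18 with 8 libraries (adjusted p = 0.0138) and 0.56 ± 0.08 without vehicle replicate 3 (adjusted p = 2.87e-04). The fold change exceeded 1.5 in the first case only.

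SRSF7, which also takes part in mRNA export and in the choice of polyadenylation site, stands at chr2:38743599-38751494. Its level was 133, 166, 89.2 and 162 CPM in the 4 vehicle libraries and 218, 229, 231 and 215 CPM in the 4 TP-472 libraries. The groups did not overlap, and vehicle replicate 3 was again the lowest. Its log2 fold change was 0.70 ± 0.18 with 8 libraries (adjusted p = 0.0181) and 0.54 ± 0.08 without vehicle replicate 3 (adjusted p = 5.15e-04). Leaving out TP-472 replicate 2 or 3 from the 8 libraries gave an adjusted p of 0.0509 or 0.0521.

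SRSF1, the founding member of the family and a proto-oncogene in several tumours, stands at chr17:58003360-58007346. Its level was 387, 473, 195 and 475 CPM in the 4 vehicle libraries and 629, 645, 641 and 629 CPM in the 4 TP-472 libraries. The 4 TP-472 libraries were close together and above every vehicle library, and vehicle replicate 3 was far below its own group. Its log2 fold change came to 0.73 ± 0.25 with 8 libraries (adjusted p = 0.0452) and 0.52 ± 0.08 without vehicle replicate 3 (adjusted p = 6.40e-04). With vehicle replicate 3 kept, the adjusted p was 0.0924 without vehicle replicate 1 and between 0.0875 and 0.0972 without any 1 TP-472 library. A lowly expressed noncoding gene, AC015813.2, shares 1890 exonic bases with SRSF1 on the same strand. It was measured at 17.1, 16.4, 14.1 and 20.6 CPM in the 4 vehicle libraries and 12.7, 10.1, 10.6 and 11.9 CPM in the 4 TP-472 libraries, and how many reads of the shared bases belong to either gene was not tested.

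SRSF3, the smallest SR protein and a regulator of its own poison exon, stands at chr6:36594353-36605600. Its level was 274, 354, 175 and 349 CPM in the 4 vehicle libraries and 435, 474, 476 and 422 CPM in the 4 TP-472 libraries. No TP-472 library reached down into the vehicle group. The log2 fold change was 0.65 ± 0.21 with 8 libraries (adjusted p = 0.0370) and 0.47 ± 0.10 without vehicle replicate 3 (adjusted p = 0.00276). Its adjusted p with vehicle replicate 3 kept was 0.0870 without vehicle replicate 1 and between 0.0659 and 0.0919 without any 1 TP-472 library.

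SRSF12, an SRSF10-like repressor of splicing, was near the lower limit of what was tested. It was measured at 0.970, 1.55, 0.955 and 1.04 CPM in the 4 vehicle libraries and 1.24, 2.11, 2.08 and 2.38 CPM in the 4 TP-472 libraries. TP-472 replicate 1 lay among the vehicle libraries, so the groups overlapped. The log2 fold change of 0.79 ± 0.26 with 8 libraries (adjusted p = 0.0410) and 0.72 ± 0.27 without vehicle replicate 3 (adjusted p = 0.0430) rests on few reads, and its adjusted p rose to 0.0982 without vehicle replicate 1, to 0.0809 without vehicle replicate 4 and to 0.105 without TP-472 replicate 4. Leaving out TP-472 replicate 2 or 3 gave 0.0999 or 0.0974, and removing the GC trend 0.0588.

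SRSF2 and SRSF6 rose by less than 1.5-fold. SRSF2, which binds both purine-rich and pyrimidine-rich enhancers and is recurrently mutated in myeloid neoplasms, had a log2 fold change of 0.36 ± 0.10 with 8 libraries (adjusted p = 0.0230) and 0.37 ± 0.08 without vehicle replicate 3 (adjusted p = 0.00279). It was 1 of the few members whose vehicle replicate 3 lay within its group. An antisense overlap of 1015 exonic bases with MFSD11, at 10.3 to 15.2 CPM, makes its exact level uncertain. SRSF6 had a log2 fold change of 0.52 ± 0.16 with 8 libraries (adjusted p = 0.0296) and 0.38 ± 0.06 without vehicle replicate 3 (adjusted p = 3.66e-04). With vehicle replicate 3 kept, leaving out vehicle replicate 1 or TP-472 replicate 1, 2 or 3 took both genes past an adjusted p of 0.05, as did leaving out TP-472 replicate 4 for SRSF6, with values from 0.0511 to 0.0792.

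The other SRSF genes did not share this direction throughout. SRSF9, an SRSF1 relative, had a log2 fold change of 0.20 ± 0.09 with 8 libraries (adjusted p = 0.115) and 0.18 ± 0.07 without vehicle replicate 3 (adjusted p = 0.0445), and SRSF10, a dephosphorylation-activated splicing repressor, of 0.40 ± 0.22 with 8 libraries (adjusted p = 0.173) and 0.20 ± 0.07 without vehicle replicate 3 (adjusted p = 0.0302). SRSF5 was at 0.27 ± 0.24 (adjusted p = 0.394) and 0.06 ± 0.10 (adjusted p = 0.615). SRSF4, a close relative of SRSF5 and SRSF6, was lower, at -0.23 ± 0.09 with 8 libraries (adjusted p = 0.0844) and -0.18 ± 0.06 without vehicle replicate 3 (adjusted p = 0.0244), with levels of 107, 108, 122 and 109.9 CPM in the 4 vehicle libraries and 99.4, 91.8, 91.2 and 100.03 CPM in the 4 TP-472 libraries. Here the TP-472 libraries lay wholly below the vehicle libraries, also with vehicle replicate 3, which was the highest. SRSF11, a partner of the large U2AF subunit, was at -0.06 ± 0.19 with 8 libraries (adjusted p = 0.814) and -0.24 ± 0.06 without vehicle replicate 3 (adjusted p = 0.00911).

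TRA2B and TRA2A bind GAA-rich exonic enhancers. TRA2B had a log2 fold change of 0.52 ± 0.18 with 8 libraries (adjusted p = 0.0471) and 0.36 ± 0.07 without vehicle replicate 3 (adjusted p = 0.00152), and its TP-472 libraries, at 358 ± 4.16 CPM (SD, n = 4), lay above all vehicle libraries. TRA2A was at 77.2 ± 1.02 CPM (SD, n = 4) under TP-472 and 78.7 ± 1.14 CPM (SD, n = 3) in vehicle replicates 1, 2 and 4, with log2 fold changes of 0.09 ± 0.13 (adjusted p = 0.620) and -0.03 ± 0.05 (adjusted p = 0.666). With vehicle replicate 3 kept, the adjusted p of TRA2B was 0.0901 without vehicle replicate 1 and at least 0.0953 without any 1 TP-472 library.

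**Figure D4:**
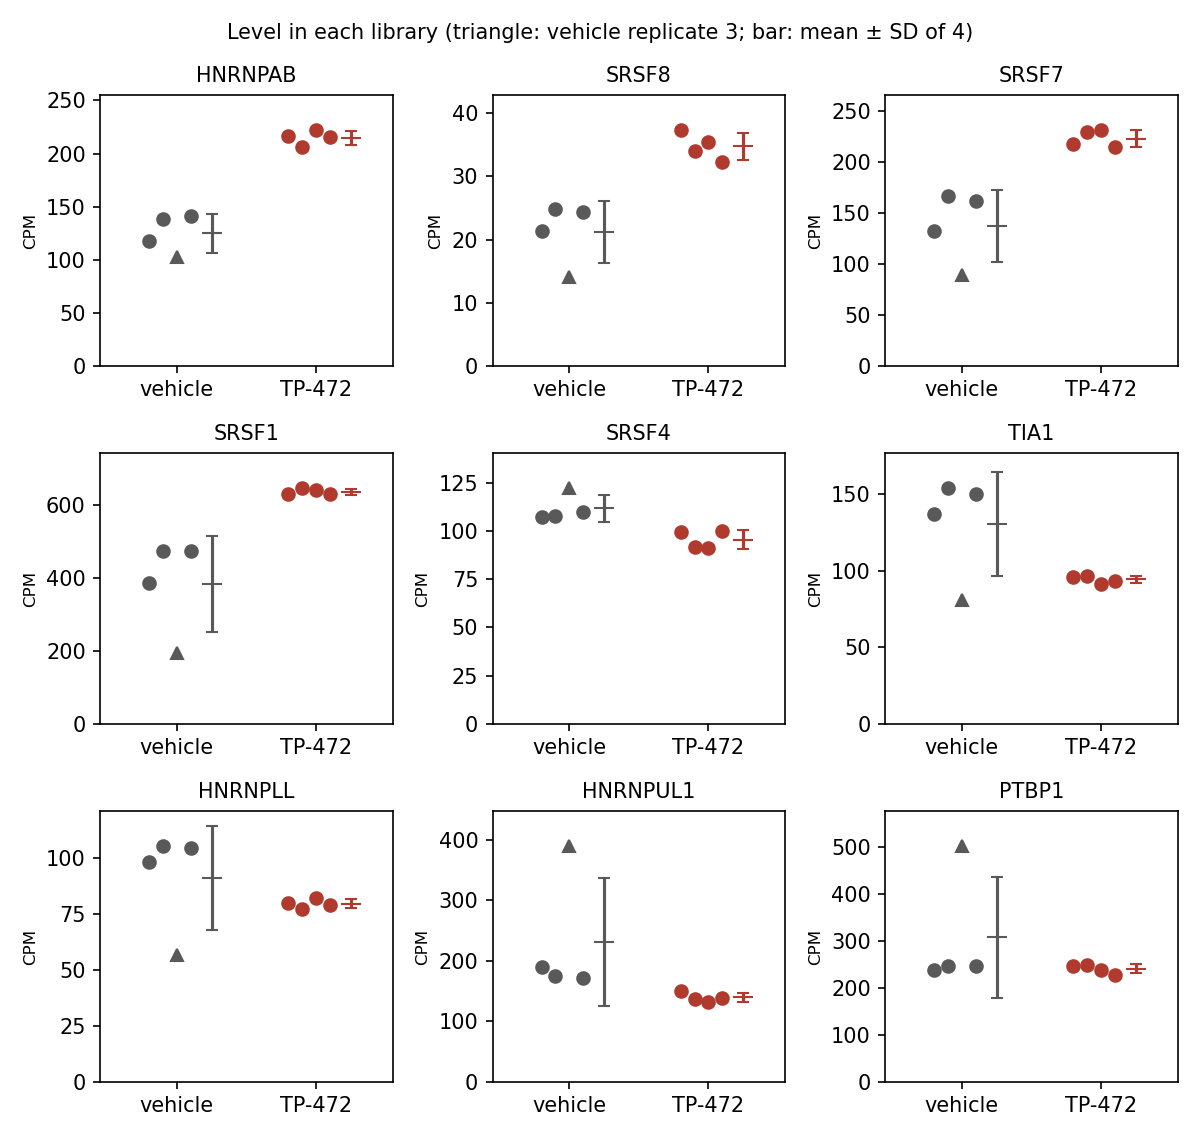
CPM of 9 splicing factors in each vehicle (grey) and TP-472 (red) library, on axes that start at 0, with vehicle replicate 3 as a triangle and the mean ± SD of the 4 libraries beside the points. HNRNPAB, SRSF8, SRSF7 and SRSF1 are higher in every TP-472 library, SRSF4 is lower in every one, and for TIA1, HNRNPLL, HNRNPUL1 and PTBP1 the triangle sets the spread of the vehicle group.

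Among the 20 hnRNP genes, 2 rose (10.0%, against 17.2% of all genes tested) and 1 fell (5.00%, against 19.1%) with 8 libraries. With 7, 4 rose (20.0%, against 28.6%) and 3 fell (15%, against 28.4%). The median log2 fold change was 0.21 with 8 libraries and 0.04 with 7. Their summed level was 6138, 6960.2, 4785 and 6854 CPM in the 4 vehicle libraries and 7037, 6938, 7066 and 6962 CPM in the 4 TP-472 libraries. Vehicle replicates 2 and 4 lay within the range of the TP-472 libraries or next to it, vehicle replicate 1 was lower and vehicle replicate 3 lowest.

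HNRNPAB had the lowest adjusted p of all 39 genes with 8 libraries. It encodes CBF-A, an AU-rich RNA-binding protein that also binds the CArG box of smooth muscle promoters, and stands at chr5:178204507-178211163. It was measured at 118, 138, 102 and 141 CPM in the 4 vehicle libraries and 217, 206, 222 and 216 CPM in the 4 TP-472 libraries. Each TP-472 library was far above each vehicle library, and vehicle replicate 3 was only slightly below its group. This gave a log2 fold change of 0.78 ± 0.12 with 8 libraries (adjusted p = 0.00175) and 0.70 ± 0.07 without vehicle replicate 3 (adjusted p = 5.15e-05), over 1.5-fold in both, and in the 19 alternatives it ran from 0.63 to 0.85 with an adjusted p of at most 0.0144. Its paralogue HNRNPD (AUF1), which directs AU-rich mRNAs to decay, had log2 fold changes of -0.10 ± 0.19 (adjusted p = 0.693) and -0.19 ± 0.17 (adjusted p = 0.371).

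HNRNPA0, a stress-regulated member of the A group, rose, with a log2 fold change of 0.35 ± 0.09 with 8 libraries (adjusted p = 0.0172) and 0.32 ± 0.06 without vehicle replicate 3 (adjusted p = 0.00185) and no overlap between groups. With vehicle replicate 3 kept, leaving out TP-472 replicate 1, 2 or 3 gave an adjusted p of 0.0627, 0.0630 or 0.0569. With the GC trend removed and all 8 libraries kept, its log2 fold change was 0.17 (adjusted p = 0.289), so it no longer passed. HNRNPM, an antagonist of epithelial splicing programmes, was measured at 170.02, 174, 274 and 176 CPM in the 4 vehicle libraries and 233, 221, 232 and 238 CPM in the 4 TP-472 libraries. It was higher in every TP-472 library than in vehicle replicates 1, 2 and 4, but vehicle replicate 3 was the highest library of all. Its log2 fold change was accordingly 0.22 ± 0.16 with 8 libraries (adjusted p = 0.312) and 0.42 ± 0.06 without vehicle replicate 3 (adjusted p = 2.11e-04). HNRNPF, which binds G-runs, was at 0.41 ± 0.16 with 8 libraries (adjusted p = 0.0669) and 0.29 ± 0.10 without vehicle replicate 3 (adjusted p = 0.0264).

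The genes that fell were HNRNPUL2, an HNRNPU-like protein, and, without vehicle replicate 3, its relative HNRNPUL1 and the T-cell splicing regulator HNRNPLL. HNRNPUL2 had a log2 fold change of -0.41 ± 0.12 with 8 libraries (adjusted p = 0.0285) and -0.46 ± 0.10 without vehicle replicate 3 (adjusted p = 0.00302). With vehicle replicate 3 kept, its adjusted p was 0.0646 without vehicle replicate 1 and 0.0664, 0.0886 and 0.0891 without TP-472 replicates 1, 2 and 3. A read-through gene with BSCL2 shares 2391 exonic bases with HNRNPUL2 on the same strand and was measured at 72.3, 35.4, 117 and 33.05 CPM in the 4 vehicle libraries and 40.2, 42.3, 37.2 and 47.03 CPM in the 4 TP-472 libraries, so the split of reads between both is uncertain. Vehicle replicate 1 and TP-472 replicate 4 were the highest of their groups for HNRNPUL2, as they were for the sum of 4 nuclear noncoding RNAs given below.

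HNRNPUL1 was measured at 189, 175, 389 and 172 CPM in the 4 vehicle libraries and 150.2, 137, 132 and 139 CPM in the 4 TP-472 libraries. The TP-472 libraries lay below all vehicle libraries, and vehicle replicate 3 was higher than the others by a wide margin. Its log2 fold change came to -0.73 ± 0.26 with 8 libraries (adjusted p = 0.0538) and -0.36 ± 0.07 without vehicle replicate 3 (adjusted p = 0.00130). HNRNPLL was at -0.19 ± 0.18 with 8 libraries (adjusted p = 0.422) and -0.36 ± 0.06 without vehicle replicate 3 (adjusted p = 4.24e-04), and its vehicle replicate 3, at 56.9 CPM, lay below all TP-472 libraries while the other vehicle libraries lay above them.

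The most abundant hnRNP genes did not pass the test. Per kilobase of exon, the highest vehicle levels (mean of replicates 1, 2 and 4) among the 39 genes were 224 CPM per kb for HNRNPK, 189 for HNRNPA1 and 181 for HNRNPH1, followed by 139 for SRSF1, the first SR protein in this order. The lowest were 5.84 for SRSF8, 4.72 for PTBP2 and 0.330 for SRSF12. The log2 fold change was 0.24 ± 0.17 and 0.09 ± 0.07 for HNRNPK, a KH-domain protein (adjusted p = 0.290 and 0.302). It was 0.15 ± 0.17 and 0.03 ± 0.11 for HNRNPA1, the archetypal splicing silencer protein (adjusted p = 0.510 and 0.859). It was 0.39 ± 0.24 and 0.18 ± 0.09 for HNRNPH1 (adjusted p = 0.231 and 0.133). Rows of HNRNPA1 pseudogenes held at most 1.36% of its counts.

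HNRNPC, which shields pre-mRNA from the use of cryptic Alu exons, was at 0.29 ± 0.24 and 0.09 ± 0.12, HNRNPU, a scaffold protein of chromatin, at 0.26 ± 0.13 and 0.17 ± 0.07, and HNRNPA2B1 at 0.11 ± 0.14 and -0.01 ± 0.07. HNRNPDL was at 0.28 ± 0.26 and 0.05 ± 0.10, HNRNPH2 at 0.31 ± 0.28 and 0.07 ± 0.11, HNRNPH3 at 0.05 ± 0.14 and -0.01 ± 0.12, HNRNPR at 0.20 ± 0.20 and 0.03 ± 0.07 and HNRNPL at -0.12 ± 0.10 and -0.07 ± 0.06. None of these 8 genes passed the test with 8 or with 7 libraries, and the lowest unadjusted p with 8 libraries was 0.0727, for HNRNPU. Without vehicle replicate 3 its unadjusted p was 0.0434 (adjusted p = 0.0713), and it passed with limma-voom and quality weights (adjusted p = 0.0215) and, without vehicle replicate 3, with the GC trend removed.

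In 7 of the 39 genes (17.9%, against 12.9% of all genes tested), vehicle replicate 1 and TP-472 replicate 4 were the highest libraries of their groups. They were HNRNPA3, HNRNPD, HNRNPH3, HNRNPUL2, PTBP2, PTBP3 and TIAL1. HNRNPA3 was measured at 264, 163, 178 and 155 CPM in the 4 vehicle libraries and 139, 130.2, 115 and 196 CPM in the 4 TP-472 libraries. Both libraries stood well above the others of their groups. For 4 nuclear noncoding RNAs listed for RNA quality, the sum was also highest in these libraries of each group, at 10014, 5972, 6575 and 6005 CPM in the 4 vehicle libraries and 6019, 5739, 5144 and 8892 CPM in the 4 TP-472 libraries. MALAT1 made up most of this sum, while KCNQ1OT1 was highest in vehicle replicate 3 and NEAT1 was nearly as high there as in vehicle replicate 1. MEG3 was near 0, and 2 of the 4, NEAT1 and KCNQ1OT1, fell under TP-472. The log2 fold change of HNRNPA3 was -0.39 ± 0.22 with 8 libraries (adjusted p = 0.180) and -0.42 ± 0.21 without vehicle replicate 3 (adjusted p = 0.120). The part of these RNAs in the values of the 7 genes was not tested.

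The PTBP genes, repressors that bind pyrimidine-rich tracts, mostly stayed within the spread. PTBP1 was measured at 238, 247, 502 and 247 CPM in the 4 vehicle libraries and 248, 249, 239 and 228 CPM in the 4 TP-472 libraries. Apart from vehicle replicate 3, the libraries of both groups overlapped. This gave a log2 fold change of -0.36 ± 0.24 with 8 libraries (adjusted p = 0.262) and -0.02 ± 0.06 without vehicle replicate 3 (adjusted p = 0.795). PTBP2, the neuronal paralogue that PTBP1 keeps low through exon skipping and decay, was at -0.09 ± 0.21 with 8 libraries (adjusted p = 0.746) and -0.28 ± 0.08 without vehicle replicate 3 (adjusted p = 0.0124), and PTBP3 at 0.14 ± 0.15 (adjusted p = 0.485) and 0.01 ± 0.07 (adjusted p = 0.903).

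TIA1 had the largest fall among the 39 genes without vehicle replicate 3. Its protein binds U-rich intronic sequence next to weak splice donors, recruits U1, and also represses translation in stress granules. It stands at chr2:70209444-70248660 and was measured at 137, 154, 81.1 and 150.3 CPM in the 4 vehicle libraries and 96.00, 96.5, 91.4 and 93.4 CPM in the 4 TP-472 libraries. The TP-472 libraries lay within a narrow range that was below vehicle replicates 1, 2 and 4 and above vehicle replicate 3. Its log2 fold change came to -0.47 ± 0.19 with 8 libraries (adjusted p = 0.0775) and -0.64 ± 0.06 without vehicle replicate 3 (adjusted p = 2.60e-05), and the second value is over 1.5-fold. TIA1 is among the genes that the study itself singled out from these libraries, so its direction here is not independent evidence. Its paralogue TIAL1 was at -0.30 ± 0.19 with 8 libraries (adjusted p = 0.246) and -0.37 ± 0.18 without vehicle replicate 3 (adjusted p = 0.105).

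Close relatives were compared through the log2 ratio of their levels within a library, by an exact two-sided permutation test over the assignments of libraries to groups, for 19 pairs. With 4 against 4 libraries this test cannot give a p below 0.0286, and adjusted over the 19 pairs no pair passed 0.05 (lowest adjusted p 0.0905, and 0.0679 without vehicle replicate 3). The ratio of HNRNPAB to HNRNPD was -0.22 ± 0.40 in vehicle and 0.66 ± 0.24 under TP-472 (log2, SD, n = 4 each, exact p = 0.0286). The ratio of SRSF4 to SRSF6 was -0.25 ± 0.42 and -1.02 ± 0.07 (exact p = 0.0286), and that of TRA2A to TRA2B -1.76 ± 0.17 and -2.21 ± 0.01 (exact p = 0.0286). Within each of these pairs the ratios of the 4 vehicle and the 4 TP-472 libraries did not overlap. Without vehicle replicate 3, their vehicle ratios were -0.22 ± 0.49, -0.46 ± 0.02 and -1.82 ± 0.13 (SD, n = 3). Each again had an exact p of 0.0286. SRSF3 to SRSF7 was 1.05 ± 0.06 and 1.02 ± 0.03 (exact p = 0.314, and 0.0571 without vehicle replicate 3). SRSF1 to SRSF9, SRSF2 to SRSF8 and HNRNPU to HNRNPUL1 also had an exact p of 0.0286 with and without vehicle replicate 3. Their ratios under TP-472 differed from vehicle by 0.61, -0.38 and 0.91 with 8 libraries and by 0.34, -0.19 and 0.52 with 7. SRSF5 to SRSF6 and HNRNPL to HNRNPLL had an exact p of 0.0286 only without vehicle replicate 3.

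To place the splicing factors among the other genes of the pathway, 118 genes in 7 lists were read from the same test, of which 113 were tested. With 8 libraries 25 rose (22.1%, against 17.2% of all genes tested) and 7 fell (6.19%, against 19.1%). With 7 libraries 47 rose (41.6%, against 28.6%) and 11 fell (9.73%, against 28.4%). From the 8 libraries, leaving out 1, the count of rises was 13, 12 and 12 without TP-472 replicates 1, 2 and 3 (11.5%, 10.6% and 10.6%, against 11.4%, 11.3% and 11% of all genes), so the share was then near that of all genes. The median log2 fold change was 0.19 and 0.18.

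The kinases and carriers that act on SR proteins directly were mixed. CLK2, a nuclear kinase that phosphorylates the arginine/serine-rich domain and releases SR proteins from speckles, fell. It was measured at 60.5, 56.4, 55.8 and 59.8 CPM in the 4 vehicle libraries and 35.3, 36.1, 33.8 and 34.9 CPM in the 4 TP-472 libraries. The groups were far apart, and vehicle replicate 3 was only slightly the lowest of its group. The log2 fold change was -0.73 ± 0.09 with 8 libraries (adjusted p = 5.73e-04) and -0.75 ± 0.06 without vehicle replicate 3 (adjusted p = 7.45e-06). TNPO3, which imports phosphorylated SR proteins into the nucleus, rose, at 0.36 ± 0.11 with 8 libraries (adjusted p = 0.0348) and 0.27 ± 0.05 without vehicle replicate 3 (adjusted p = 0.00223). Of the 10 genes tested in this list, 1 rose and 1 fell with 8 libraries (10.0% each, against 17.2% and 19.1% of all genes) and 3 rose and 2 fell with 7 (30.0% and 20.0%, against 28.6% and 28.4%). Of the cytoplasmic SR kinases, SRPK1 was at 0.36 ± 0.14 with 8 libraries (adjusted p = 0.0808) and 0.23 ± 0.06 without vehicle replicate 3 (adjusted p = 0.0105). SRPK2 was at -0.23 ± 0.13 with 8 libraries (adjusted p = 0.173) and -0.33 ± 0.07 without vehicle replicate 3 (adjusted p = 0.00351). Neither passed with 8 libraries.

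The 3 core spliceosome lists held rises and 0 falls by edgeR, with 8 and with 7 libraries, also at an unadjusted p under 0.05, and 0 adjusted falls by DESeq2 and limma-voom. Of all genes tested, 17.2% rose and 19.1% fell with 8 libraries and 28.6% and 28.4% with 7. In the U1, U2 and 3′ splice site list, 6 of 18 rose with 8 libraries (33.3%) and 8 with 7 (44.4%). Among them were PHF5A, an SF3B subunit, at 0.87 ± 0.23 with 8 libraries (adjusted p = 0.0175) and 0.67 ± 0.10 without vehicle replicate 3 (adjusted p = 4.25e-04), SF3B5 at 0.73 ± 0.12 with 8 libraries (adjusted p = 0.00265) and 0.72 ± 0.11 without vehicle replicate 3 (adjusted p = 5.01e-04) and the U2 protein SNRPB2 at 0.76 ± 0.21 with 8 libraries (adjusted p = 0.0241) and 0.58 ± 0.10 without vehicle replicate 3 (adjusted p = 0.00103). In the list of the U4/U6.U5 tri-snRNP and Prp19 complex, 6 of 22 rose with 8 libraries (27.3%) and 13 with 7 (59.1%). The largest change was that of PRPF4, a U4/U6 protein, measured at 73.95, 86.8, 59.3 and 86.6 CPM in the 4 vehicle libraries and 153, 150.2, 155 and 145 CPM in the 4 TP-472 libraries. Its TP-472 libraries were all well above the vehicle libraries. This gave a log2 fold change of 0.97 ± 0.13 with 8 libraries (adjusted p = 0.00102) and 0.87 ± 0.07 without vehicle replicate 3 (adjusted p = 1.20e-05). PLRG1 was at 0.74 ± 0.20 with 8 libraries (adjusted p = 0.0200) and 0.56 ± 0.07 without vehicle replicate 3 (adjusted p = 1.20e-04) and TXNL4A at 0.66 ± 0.16 with 8 libraries (adjusted p = 0.0144) and 0.52 ± 0.07 without vehicle replicate 3 (adjusted p = 2.91e-04). All 14 Sm and LSm ring genes had a positive log2 fold change in either case, but 1 rose with 8 libraries (7.14%) and 5 with 7 (35.7%). SNRPB, the gene that rose with 8 libraries, was at 0.50 ± 0.13 (adjusted p = 0.0151). Without vehicle replicate 3 it was at 0.50 ± 0.11 (adjusted p = 0.00437). Vehicle replicate 3 was the lowest library for 11 of these 14.

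In the list of SR-related coactivators and exon junction proteins, 3 of 16 rose and 1 fell with 8 libraries (18.8% and 6.25%, against 17.2% and 19.1% of all genes), and 6 rose and 2 fell with 7 (37.5% and 12.5%, against 28.6% and 28.4%). The exon junction complex core genes EIF4A3, at 0.67 ± 0.09 with 8 libraries (adjusted p = 0.00109) and 0.72 ± 0.06 without vehicle replicate 3 (adjusted p = 7.93e-06), and RBM8A, at 0.68 ± 0.11 with 8 libraries (adjusted p = 0.00220) and 0.62 ± 0.07 without vehicle replicate 3 (adjusted p = 1.03e-04), were among the rises, as was PNN, at 0.63 ± 0.14 with 8 libraries (adjusted p = 0.00857) and 0.56 ± 0.11 without vehicle replicate 3 (adjusted p = 0.00234). Of 10 genes of nonsense-mediated decay, 3 rose with 8 libraries (30.0%, against 17.2%) and 6 with 7 (60.0%, against 28.6%), and 0 fell in either case, at an adjusted or unadjusted p by edgeR or by DESeq2 or limma-voom. UPF3B was at 0.66 ± 0.18 with 8 libraries (adjusted p = 0.0206) and 0.53 ± 0.12 without vehicle replicate 3 (adjusted p = 0.00374), SMG8 at 0.48 ± 0.14 with 8 libraries (adjusted p = 0.0261) and 0.38 ± 0.08 without vehicle replicate 3 (adjusted p = 0.00285) and SMG5 at 0.39 ± 0.13 with 8 libraries (adjusted p = 0.0437) and 0.53 ± 0.06 without vehicle replicate 3 (adjusted p = 7.80e-05). Among 23 other splicing regulators tested, 5 rose and 5 fell with 8 libraries (21.7% each, against 17.2% and 19.1%), and 6 rose and 7 fell with 7 (26.1% and 30.4%, against 28.6% and 28.4%), shares near those of all genes. MBNL2, a muscleblind protein, was at -0.65 ± 0.20 with 8 libraries (adjusted p = 0.0319) and -0.83 ± 0.07 without vehicle replicate 3 (adjusted p = 1.28e-05) and TAF15 at -0.66 ± 0.18 with 8 libraries (adjusted p = 0.0210) and -0.53 ± 0.15 without vehicle replicate 3 (adjusted p = 0.0112). NOVA2, a neuronal regulator, was at -2.84 ± 0.62 with 8 libraries (adjusted p = 0.00810) and -2.10 ± 0.42 without vehicle replicate 3 (adjusted p = 0.00217). Its level was 2.75 ± 1.73 CPM (SD, n = 3) in vehicle replicates 1, 2 and 4 and 0.636 ± 0.228 CPM (SD, n = 4) under TP-472. All 4 TP-472 libraries were under 1 CPM, and NOVA2 passed the filter only through the vehicle libraries. At that TP-472 level it was tested only because vehicle was higher, so nothing is concluded from its test.

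**Figure D5:**
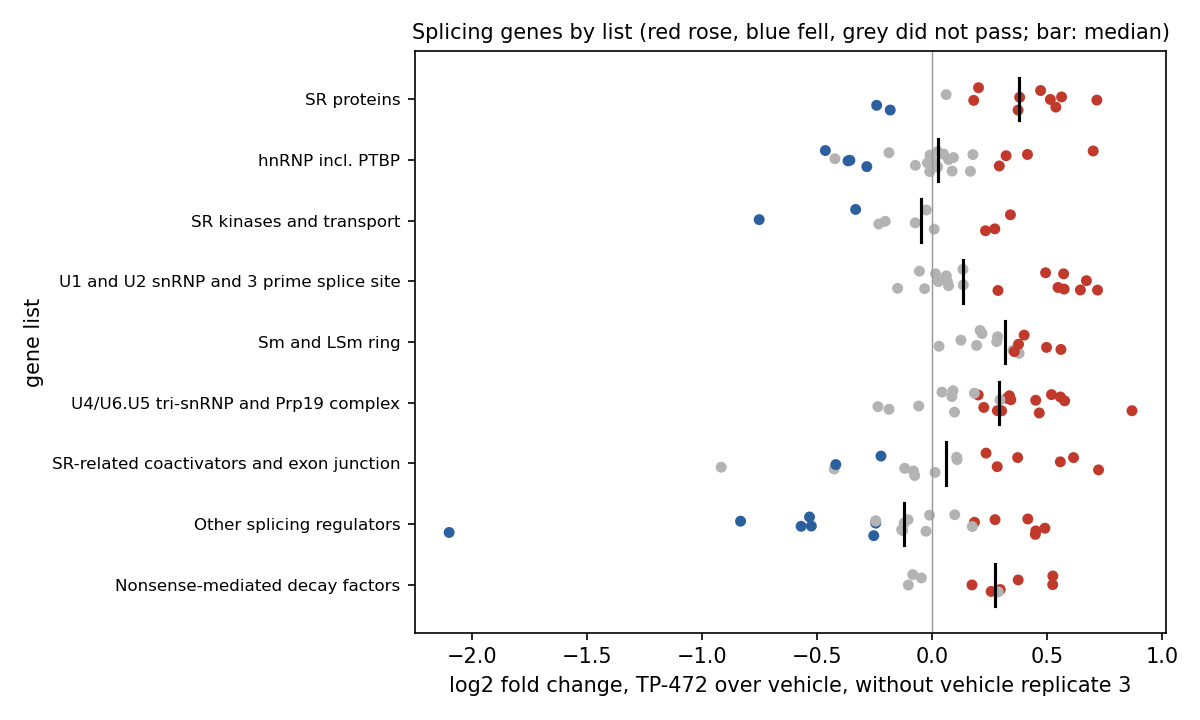
Log2 fold change without vehicle replicate 3 (x axis) of every tested gene in the SR protein and hnRNP classes and in 7 further lists of splicing genes (rows). Red genes rose, blue genes fell, grey genes did not pass an adjusted p of 0.05, and the bar is the median of the row, highest for SR proteins (0.38) and lowest for the other splicing regulators (-0.12).

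Cell type markers were read in the same libraries. Of 9 smooth muscle genes, ACTA2 was at 165 ± 16.6 CPM (SD, n = 3) in vehicle replicates 1, 2 and 4 and 109 ± 3.52 CPM (SD, n = 4) under TP-472 and CALD1 at 207 ± 7.12 CPM (SD, n = 3) and 192 ± 5.65 CPM (SD, n = 4), whereas the defining markers MYH11 and ACTG2 were near 0, at up to 0.236 and 0.0330 CPM on average in either group. The sum of the 9 genes was 439, 479, 524 and 481 CPM in the 4 vehicle libraries and 379.8, 378, 373 and 371 CPM in the 4 TP-472 libraries. Of the 7 that were tested, 4, ACTA2, DES, TAGLN and LMOD1, fell with 8 libraries while 0 rose by edgeR. DES and LMOD1 were under 1 CPM in all 4 TP-472 libraries and passed the filter only through the vehicle libraries. MYH11, higher in every TP-472 library than in any vehicle library, was not tested. The filter thus shaped this tally, and nothing is concluded from it. Of 5 fibroblast markers COL1A1 and COL1A2 fell, the latter to 98.8 ± 4.83 CPM (SD, n = 4) from 559 ± 58.7 CPM (SD, n = 3), and DCN and LUM were near 0. Endothelial markers summed to at most 0.581 CPM in any library, and the immune markers PTPRC and CD3E were near 0. The 6 immune genes summed to 7.20 to 13.1 CPM per library, nearly all of it CD68, a lysosomal protein also made outside macrophages, which rose (0.47 ± 0.14 with 8 libraries (adjusted p = 0.0307) and 0.48 ± 0.13 without vehicle replicate 3 (adjusted p = 0.00990)). The 5 epithelial genes summed to 17.5 to 26.8 CPM, with EPCAM under 1 CPM, KRT18 higher (1.08 ± 0.14 with 8 libraries (adjusted p = 7.26e-04) and 1.14 ± 0.11 without vehicle replicate 3 (adjusted p = 3.63e-05)) and KRT19 lower (-0.85 ± 0.21 with 8 libraries (adjusted p = 0.0151) and -0.71 ± 0.18 without vehicle replicate 3 (adjusted p = 0.00720)). The marker changes that passed ran along with the treatment, as did those of the splicing factors that passed. The part of the markers in the splicing factor values was not tested.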

How the data were processed

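Estimated counts per gene were deposited by the authors: reads were quantified with salmon 1.4.0 against GENCODE release 34 (GRCh38) and transcript estimates were summed with tximport, with no filter or normalization. STAR served quality control, and the deposited counts carry no isoform detail. The study describes strand-specific libraries from total RNA, and the labels name an Illumina TruSeq RNA kit. Whether counting used strand is not given in the sources used here, so antisense overlaps are uncertain.

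Counts were rounded. A gene was tested if 4 or more of the 8 libraries exceeded 1 CPM (14073 of 60282 genes). After TMM scaling, groups were compared by quasi-likelihood F tests in edgeR 4.0.16 (R 4.3.3), adjusted over all genes tested, without covariates. Standard errors are the log2 fold change over the square root of F. The fit without vehicle replicate 3 kept the same genes. The study gives the limits (adjusted p under 0.05, fold over 1.5) but no test for these data.

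The 39 members, the lists and the pairs were chosen with earlier results of these data known. Values in every library are given for members differentially expressed with 8 or 7 libraries, and chosen for illustration after seeing the values for SRSF4, HNRNPM, HNRNPUL1, HNRNPA3 and PTBP1. Of each list, up to 3 genes with the largest change among those that passed are named, and SRPK1 and SRPK2 were added after their values were seen. Coordinates come from GENCODE release 29 (GRCh38), and upstream sequence from RefSeq (GRCh38.p14).

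Alternatives were RLE, upper-quartile and total-count scaling, no filter, filterByExpr, a filter at 5 CPM, DESeq2 1.42.0, limma-voom with quality weights (limma 3.58.1), replicate number as a block, removal of the GC trend (loess, GC content known for 99.3% of the genes tested), pseudogene counts added, a test against the fold limit, and each library left out. GC removal, DESeq2 and total-count scaling without vehicle replicate 3 were added after seeing the data.

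Libraries were checked for copies: over pairs, the mean chi-square per gene was at least 12.8, where counting alone gives about 1. Totals were 32574716 to 38545695 counts. SRSF12, the lowest member, carries the largest counting error. The test was tried on simulated data for this comparison over 14073 genes, where it recovered 66 of 100 genes changed 2-fold and 100 of 100 changed 4-fold, with 9 false calls. The simulated counts were drawn independently in each library, without a GC trend like that of vehicle replicate 3. These rates therefore need not hold for the 8 libraries.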

Additional observations from a re-analysis of the deposited data

Results flagged for a closer look

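In 78 groups of 4 values (39 genes in vehicle and in TP-472), 18 had 1 library whose gap to the nearest other exceeded Dixon's 95% critical share of the group's range. Among independent groups, chance flags about 1 in 20. These groups come from the same 8 libraries, so 1 deviating library can flag many genes. The share of flags over all genes tested was not computed, so nothing is concluded from the count. Vehicle replicate 3 accounted for 8 of the 18. It was low, at 93.5 CPM for SRSF6, 54.7 CPM for TRA2A, 56.9 CPM for HNRNPLL, 593 CPM for HNRNPU and 139.7 CPM for PTBP3. It was high, at 274 CPM for HNRNPM, 389 CPM for HNRNPUL1 and 502 CPM for PTBP1. The first 5 genes have a GC content below the median of all genes tested and the last 3 above it.

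TP-472 replicate 4 stood apart from its group for SRSF5 (149 CPM, low), SRSF11 (234 CPM, high), HNRNPA1 (756 CPM, low), HNRNPD (174 CPM, high), PTBP3 (242 CPM, high) and TIAL1 (97.8 CPM, high). Vehicle replicate 1 stood apart for TIAL1 (126 CPM, high) and SRSF2 (224 CPM, low). Vehicle replicate 2 was high for SRSF12 (1.55 CPM), and TP-472 replicate 3 was high for HNRNPK (749 CPM). Over all genes tested, the deviations of vehicle replicate 1 and TP-472 replicate 4 from their group means correlated at r = 0.40, the highest value among the 16 pairs of a vehicle and a TP-472 library, given as a description. The cause was not tested.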

How the results depend on the processing

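Among the 39 genes, HNRNPAB and SRSF8 alone kept an adjusted p under 0.05 in each of the 19 alternative analyses named above that refit each gene; under the test against 1.5-fold (glmTreat in edgeR), 0 of the 39 were called higher. RLE, upper-quartile and total-count scaling changed no direction; upper-quartile scaling took TRA2B to an adjusted p of 0.0510. The median log2 fold change of all genes, -0.03 by TMM, was between -0.03 and -0.06 under these.

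With vehicle replicate 3 kept, 10 of the 39 genes rose and 1 fell; 3 rose without a filter, 2 fell with filterByExpr, 3 fell by DESeq2, 15 rose and 9 fell with limma-voom and quality weights (38.5% and 23.1%, against 34.1% and 34.2% of all genes), and 10 rose and 7 fell with the GC trend removed (25.6% and 17.9%, against 25.9% and 26.9%). Without a filter the 3 rises were 7.69%, against 8.06%. The 2 falls with filterByExpr were 5.13%, against 17.5%, and the 3 by DESeq2 7.69%, against 15.4%. Differentially expressed genes numbered 6 higher and 0 lower; 3 and 1 without a filter, 1 lower each with filterByExpr and by DESeq2, 1 and 1 with limma-voom, and 3 and 1 with the GC trend removed. Leaving out 1 library gave 2 to 14 rises (5.13% to 35.9%, against 11% to 28.6% of all genes). It gave 0 to 7 falls (up to 17.9%, against 11.2% to 28.4%). Differentially expressed were 2 to 7 genes higher (5.13% to 17.9%, against 9.26% to 13%) and 0 to 1 lower (up to 2.56%, against 9.86% to 17%). Without vehicle replicate 3, falls numbered 7 with the GC trend removed (17.9%, against 29.1% of all genes). They numbered 7 by DESeq2 (17.9%, against 18.5%, a share near that of all genes) and 6 with total-count scaling (15.4%, against 26.6%). In the same 3 analyses, differentially expressed genes numbered 2 and 1, 1 and 1, and 2 and 1. The higher ones were 5.13%, 2.56% and 5.13%, against 12.3%, 11% and 11.8%. The lower ones were 2.56% each, against 12.9%, 9.75% and 13.3%. Of the 7 genes that fell without vehicle replicate 3, 6 fell also with 8 libraries and the GC trend removed, and 10 of the 14 that rose did.

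Of the 113 further splicing genes, 25 rose and 7 fell. With limma-voom 58 and 19 did (51.3% and 16.8%, against 34.1% and 34.2% of all genes), with the GC trend removed 40 and 11 (35.4% and 9.73%, against 25.9% and 26.9%), and with 1 library left out 12 to 47 and 4 to 11. Without vehicle replicate 3, 47 rose and 14 fell with the GC trend removed (41.6% and 12.4%, against 28.7% and 29.1%). By DESeq2 42 and 12 did (37.2% and 10.6%, against 19.8% and 18.5%). Total-count scaling gave 50 and 11 (44.2% and 9.73%, against 27.7% and 26.6%). Differentially expressed were 14 higher and 4 lower; 5 higher with limma-voom, 7 lower with the GC trend removed, 1 and 1 in the test against 1.5-fold, 6 to 18 and 2 to 5 with 1 library left out, and 7, 6 and 6 higher in the 3 analyses without vehicle replicate 3.

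Over all genes, 2418 rose and 2684 fell, against 4797 and 4809 with limma-voom and 1541 to 4024 and 1581 to 4000 with 1 library left out. The 3 analyses without vehicle replicate 3 gave 4016 and 4066 (GC trend removed), 4599 and 4307 (DESeq2) and 3898 rises (total-count scaling). DESeq2 called 2678 differentially expressed higher, or 2563 without vehicle replicate 3, and the test against 1.5-fold 529 higher and 594 lower; with 1 library left out, 1387 to 2399 were lower.

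Replicate numbers did not pair the libraries: same-numbered deviations correlated at -0.06, 0.12, -0.17 and -0.18, and not every library correlated best with its own number. With the replicate number as a block, 3 of the 39 genes rose (HNRNPAB, SRSF7 and SRSF8; 7.69%, against 11.9% of all genes), 0 fell by edgeR and 3 were differentially expressed higher (7.69%, against 10.7%), shares below those of all genes; of the 113 further splicing genes 15 rose (13.3%, against 11.9%), 4 fell (3.54%, against 12.1%) and 2 were differentially expressed lower; and 1699 of all genes fell.

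Log2 fold changes of 13 genes changed sign. With limma-voom they were -0.025 (SRSF5), -0.024 (TRA2A), -0.040 (HNRNPA1), -0.037 (HNRNPA2B1), -0.045 (HNRNPDL), -0.016 (HNRNPH2), -0.038 (HNRNPR) and -0.018 (PTBP3). With the GC trend removed they were -0.062 (TRA2A), -0.042 (HNRNPA2B1), -0.14 (HNRNPH3), 0.0092 (PTBP1) and -0.031 (PTBP3). Without vehicle replicate 3 and with the GC trend removed they were -0.050 (TRA2A), -0.022 (HNRNPA1), -0.024 (HNRNPA2B1), -0.025 (HNRNPH3) and 0.067 (PTBP1), by DESeq2 -0.043 (TRA2A), -0.025 (HNRNPA2B1), -0.024 (HNRNPH3) and -0.0043 (PTBP3), and with total-count scaling -0.032 (TRA2A), -0.010 (HNRNPA2B1) and -0.013 (HNRNPH3). Leaving out 1 library gave -0.24 to 0.030 for SRSF11, -0.027 to 0.13 for TRA2A, -0.0083 to 0.18 for HNRNPA2B1, -0.23 to 0.091 for HNRNPD, -0.028 to 0.13 for HNRNPH3 and -0.28 to 0.021 for PTBP2. With limma-voom 19 of the 39 genes were higher and 20 lower, against 27 and 12 with edgeR, and 24 and 15 with the GC trend removed or without vehicle replicate 3. SRSF12 was not tested with the filter at 5 CPM. The cause of these changes was not tested.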
